A study of Homo sapiens with 4 samples.

Results

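The comparison described here was between the library treated with both neobractatin (NBT) and trametinib and the library treated with trametinib alone. By treatment label these differ in NBT only, and the difference between them is called the step of adding NBT. Members were all genes that reached 50 counts in either of these libraries, 11267 of the 16834 genes in the table. The cells, labelled as the pancreatic ductal adenocarcinoma (PDAC) line MIA PaCa-2 and as wild type in genotype, received no drug (control), NBT at 1 µM, trametinib at 5 µM or the combination of both, each for 12 h. RNA of each condition was sequenced as 1 library, so the variation between cultures was not measured, no p-value could be obtained, and every interval given covers counting error only. The combined counts were between 18776212 and 19614763 per library, and 3 counts corresponded to between 0.153 and 0.160 CPM (the share of the library sum scaled to a fixed total).

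NBT is a natural product isolated from a Garcinia species, and trametinib is an allosteric inhibitor of MEK, the kinase that activates ERK. In cells with active RAS, ERK drives transcription of growth genes such as MYC, FOSL1 and CCND1 and of its own inhibitors, the dual-specificity phosphatases and Sprouty proteins. Misfolded protein in the endoplasmic reticulum (ER) starts the unfolded protein response (UPR), in which the sensors IRE1, PERK and ATF6 raise chaperones and degradation factors, and PERK also acts through the transcription factor ATF4. NRF2 is a factor stabilized by oxidative or electrophilic stress that raises glutathione and heme-degrading enzymes, and SREBP2 is the ER-anchored factor that controls cholesterol genes.

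The labels were checked against line and cell type markers in TPM, the deposited unit corrected for transcript length, with the 4 values always given in the order control, NBT, trametinib and combination. CDKN2A, a gene that MIA PaCa-2 cells are known to have lost, stood at 264, 249, 342 and 290.3 TPM. The mesenchymal filament gene VIM, high in that line, was at 11.5, 13.0, 23.5 and 26.4 TPM, and the epithelial cadherin gene CDH1 was at 85.4, 51.2, 86.9 and 57.0 TPM. The basal keratin gene KRT5 reached 1179.5, 634, 3123 and 1079 TPM. These levels go against the line named in the titles in all 4 libraries alike, and the cell line entries of the labels differ between the libraries, so the cells are called here by their label only. The identity of the line was not tested. Keratin genes KRT8 and KRT18 were abundant throughout. Of 5 fibroblast markers, COL1A1 had 45, 27, 98 and 53 counts, THY1 had 14, 7, 7 and 8, and COL1A2, LUM and PDGFRB had at most 5 in any library. The acinar marker CPA1 and the endocrine marker CHGA had at most 2 counts, and no endothelial marker reached 50 counts. Of 7 immune markers, CD68, which is also present in epithelial lysosomes, stood at 129, 139, 91.9 and 99.2 TPM, and CD3E had 55 counts with trametinib and 29 with the combination but 0 in the other 2 libraries. The part of these transcripts in the results below was not tested. In RNA of whole cultures, fewer cells of a kind and less RNA per cell cannot be told apart.

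Of the 11267 genes, 316 were at least 2-fold higher and 427 at least 2-fold lower in the combination library than in the trametinib library, that is 2.8% and 3.79%. This limit, a log2 ratio of 1 in size, is called the 2-fold limit below. The median log2 ratio over all members was -0.03, the 5th and 95th percentiles were -0.88 and 0.77, and 75.2% of the members lay within 0.5 of 0. A 4-fold difference was reached by 58 genes that were higher and 69 that were lower. Counting error alone left 207 of the higher and 235 of the lower genes with their whole 95% interval past the limit. Of the 743 genes past the limit, 182 had fewer than 50 counts in the lower library and entered only through the library in which they were high. At the edge of the selection, 192 members had between 50 and 59 counts in the higher library and 240 genes just outside it had between 40 and 49.

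**Figure D1:**
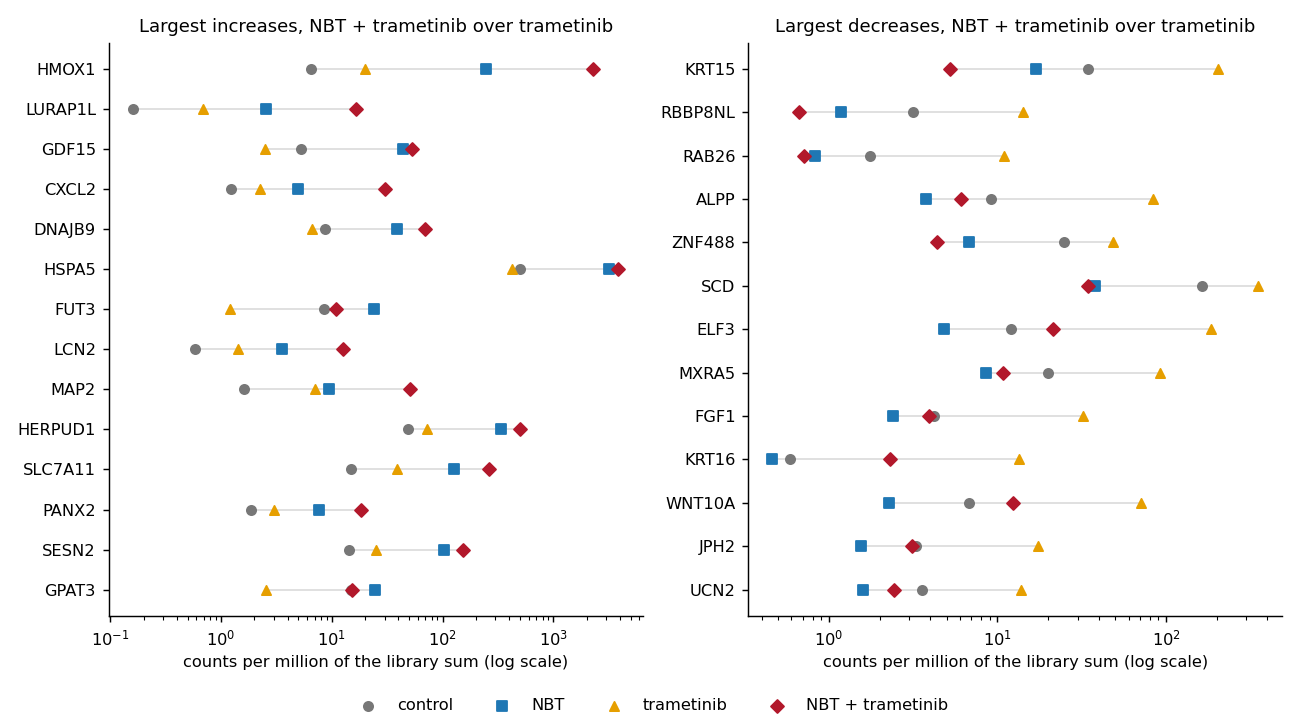
Level of 14 of the 15 genes with the largest increase (left) and 13 of the 15 with the largest decrease (right) in the combination library over the trametinib library, among genes whose higher library had 200 counts or more. Each marker is 1 library, the x axis is CPM on a log scale and the lines span the 4 libraries. The combination library is the highest for 12 of the 14 genes on the left, and the trametinib library is the highest for all 13 genes on the right. The genes were chosen by the ratio of these libraries, so both counts follow in part from the choice.

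The largest increase was in HMOX1, the heme oxygenase that frees iron from heme. Its level was 6.44, 248, 20.2 and 2275 CPM in the control, NBT, trametinib and combination libraries, a log2 ratio of 6.82 (95% interval 6.67 to 6.97) for the combination over trametinib. The stress cytokine gene GDF15 followed a similar order at 5.33, 44.3, 2.48 and 53.4 CPM, and its log2 ratio was 4.41 (95% interval 4.01 to 4.88). The neutrophil chemokine gene CXCL2 was at 1.22, 4.94, 2.27 and 30.3 CPM, and the siderophore-binding LCN2 was at 0.586, 3.55, 1.42 and 12.6 CPM. LURAP1L had only 3 counts in the control library and stood at 0.160, 2.57, 0.686 and 16.6 CPM. MAP2 and PANX2, which encode a microtubule-associated protein and a pannexin channel, had log2 ratios of 2.84 and 2.61. The 15 leading genes were chosen by the pair with trametinib, and all 15 were also higher with NBT in the pair without it.

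The leading decreases were of a different kind. KRT15, a keratin of basal epithelial cells, was at 34.7, 17.0, 203 and 5.20 CPM, so that the trametinib library was the highest and the combination library the lowest, with a log2 ratio of -5.28 (95% interval -5.58 to -5.00). The epithelial transcription factor gene ELF3 was at 12.0, 4.84, 185 and 21.3 CPM and the placental alkaline phosphatase gene ALPP, which has near-identical copies, at 9.21, 3.76, 83.6 and 6.07 CPM. The WNT ligand gene WNT10A was at 6.82, 2.26, 71.0 and 12.4 CPM, and the fibroblast growth factor gene FGF1 was at 4.21, 2.42, 32.1 and 3.93 CPM. For 14 of the 15 leading decreases the trametinib library was the highest of the 4. In 12 of the 15 the combination library was below the control. The genes were chosen by the ratio of the combination over trametinib, so both counts follow in part from the choice. The related keratin genes KRT5, KRT16 and KRT17 had log2 ratios of -1.52, -2.53 and -2.17, and reads of KRT16 and KRT17 may be divided between these copies and their pseudogenes.

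By absolute level, the 5 largest gains from trametinib to the combination were in FTH1, HSPA5, MT2A, EEF1A1 and SQSTM1. FTH1, the ferritin heavy chain, was at 1214, 3234, 2045 and 7039.9 CPM, and SQSTM1, an adaptor of selective autophagy, was at 782, 1794, 1598 and 4389 CPM. MT2A and EEF1A1 gained 3209 and 2811 CPM at log2 ratios of 0.87 and 0.30, both under the 2-fold limit. The 5 largest losses were in ACTB, GAPDH, SLC7A5, KRT5 and ACTG1. KRT5 was at 1326, 747, 3575 and 1246 CPM and was the only gene of these 5 past the limit. ACTB and GAPDH, often used as references, had log2 ratios of -0.69 and -0.29, and the 14 reference genes had a median of -0.36.

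Splicing of XBP1 gave a readout of IRE1 that does not depend on scaling, because IRE1 removes a short segment of the mRNA and thereby shifts the reading frame to that of the active factor. The segment of 26 bases was found by comparing GENCODE v29 transcript sequences of both forms, as the stretch missing from the spliced one. Its ends repeat, so that 7 placements give the same spliced form, and the one printed is that in which CNG precedes and CAG follows each cut, the motif in which IRE1 is known to cleave. So placed, it lies at chr22:28796127-28796152 on the minus strand of GRCh38, in coding exon 4 of 5 (GENCODE v29). It is shown in capitals within its flanks (chr22:28796103-28796176), because the share of transcripts without it is the measurement.
XBP1 segment: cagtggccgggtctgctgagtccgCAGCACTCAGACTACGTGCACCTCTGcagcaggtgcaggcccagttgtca

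The spliced form took 45 of 1411 XBP1 counts in the control library, or 3.19% (95% Clopper-Pearson interval 2.34 to 4.24), and 55 of 1616 in the trametinib library, or 3.40% (2.57 to 4.41). It took 2608 of 3509 in the NBT library, or 74.3% (72.8 to 75.8), and 3623 of 4910 in the combination library, or 73.8% (72.5 to 75). The intervals of both libraries with NBT overlapped each other and lay far from those of the libraries without it, which also overlapped. XBP1 as a whole was at 75.1, 181, 85.3 and 250.3 CPM. The level of XBP1 was thus higher in the combination than with NBT alone, whereas the intervals of the spliced share overlapped. The counts of both forms are estimates, and reads that match both forms are divided between them. The intervals treat each count as an observed read, so the counting error of the share can be wider than they show.

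**Figure D2:**
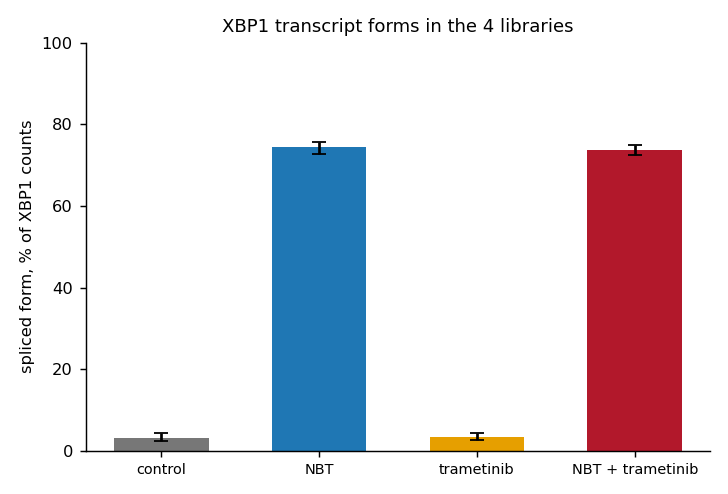
Share of XBP1 counts estimated for the spliced form in each library, in percent of the counts of both forms, with 95% Clopper-Pearson intervals as error bars. The share was 3.19% and 3.40% in the libraries without NBT and 74.3% and 73.8% in those with it. The counts of both forms are estimates, so the counting error can be wider than the bars.

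Among 14 UPR sensors and factors, 6 were past the 2-fold limit and all of these were higher, with a list median of 0.69 against -0.03 for all members. They were DDIT3, which encodes the death-linked factor CHOP, PPP1R15A, the phosphatase subunit that reverses PERK's block of translation, XBP1, the sensor genes ERN1 (IRE1) and EIF2AK3 (PERK), and CREB3L2. DDIT3 was at 10.4, 66.8, 23.4 and 132 CPM and had a log2 ratio of 2.50 (95% interval 2.35 to 2.65). PPP1R15A was at 265, 583, 167 and 737 CPM with 2.14 (95% interval 2.08 to 2.2). ATF4 itself, which is controlled mainly at translation, was at 464, 680.2, 554 and 684 CPM, a log2 ratio of 0.30.

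The ER chaperones followed the same direction. Of 24 chaperones and folding enzymes, 10 were past the limit and higher, none was past it and lower, and the median was 0.90. HSPA5, the central ER chaperone BiP, was at 496, 3156, 423 and 3881 CPM with a log2 ratio of 3.20 (95% interval 3.17 to 3.23). DNAJB9, a co-chaperone that represses IRE1, was at 8.63, 38.9, 6.6 and 68.8 CPM with 3.38 (95% interval 3.12 to 3.66), and HYOU1, the exchange factor of BiP, was at 233, 659, 179 and 822 CPM. The other 7 were MANF, ERO1B, SDF2L1, HSP90B1, DNAJC3, DNAJB11 and CANX, from 1.61 for MANF to 1.12 for CANX. The calcium-binding CALR (0.43) and the protein disulfide isomerase P4HB (0.56) lay above 0 but under the limit, and CNPY2 lay below it at -0.44. The summed level of the list was 6034, 12009, 5473 and 13637 CPM.

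Genes of ER export and ER-associated degradation behaved alike, with 8 of 22 past the limit, all of them higher, and a median of 0.80. All 22 were above a log2 ratio of 0. HERPUD1, a scaffold of the degradation complex, was at 48.4, 340.3, 72.0 and 500.0 CPM with 2.80 (95% interval 2.71 to 2.88). The COPII coat gene SEC24D was at 30.3, 89.6, 25.7 and 127 CPM, and the ubiquitin ligase gene SYVN1 and its partner SEL1L had log2 ratios of 1.68 and 1.19.

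Promoter sequences of the members were then examined. RefSeq promoters of GRCh38.p14, from 250 bases before to 50 after each start, were at hand for 9305 of the members, or 82.6%, and were searched on both strands. The ER stress element (ERSE, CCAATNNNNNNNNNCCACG), to which ATF6 and XBP1 bind, was present in 16 of the 9305, or 0.172%. It was present in 7 of the 248 genes that were past the limit and higher, or 2.82% (95% interval 1.14 to 5.73), and in 0 of 315 that were lower, which allows a share of up to 1.16%. These 7 were HSPA5, FICD, SERP1, ERO1B, XBP1, HSP90B1 and CANX, of which FICD, the enzyme that modifies BiP, and SERP1, a component of the translocation site, were named after their values were seen. FICD was at 3.78, 16.2, 5.28 and 25.7 CPM and SERP1 at 154, 344, 144 and 445 CPM. Of the 16 genes, 14 had a log2 ratio above 0, and their median was 0.78. By list, and whether past the limit or not, an ERSE was present in 7 of 22 promoters of ER chaperones and folding enzymes. It was present in 1 of 14 promoters of UPR sensors and factors and in 0 of 19 of ER export and degradation. The C/EBP-ATF response element (CARE, TGATGNAA), bound by ATF4, was present in 2.68% of all promoters, in 6.05% (3.42 to 9.78) of the higher and in 2.54% of the lower genes. The AP-1 motif TGANTCA was present in 6.94% of all, in 14.1% (10 to 19.1) of the higher and in 9.84% of the lower genes. The core of the antioxidant response element (ARE, TGACNNNGC), which can share bases with the AP-1 motif, was present in 19.5%, 26.2% and 19.7%. Among the 42 promoters of genes at least 4-fold higher, the ARE core share was 16.7% (95% interval 6.97 to 31.4), below that of all promoters. In these 42 the shares of ERSE, CARE and AP-1 were 4.76%, 4.76% and 19.0%.

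The bases before the start are shown for 5 genes past the limit whose promoter held the motif of its group, with the match in capitals, so that the spacing of the motif from the start can be seen. The ERSE of HSPA5 begins 66 bases before the start and that of XBP1 begins 52 bases before it. The CARE of CHAC1 begins 209 bases and that of ASNS 68 bases before the start, the former matching on the opposite strand. The ARE core of GCLM begins 34 bases before the start and also matches on the opposite strand. A match of these letters is a description and was not tested as a site.
HSPA5, chr9:125241344-125241593, minus strand: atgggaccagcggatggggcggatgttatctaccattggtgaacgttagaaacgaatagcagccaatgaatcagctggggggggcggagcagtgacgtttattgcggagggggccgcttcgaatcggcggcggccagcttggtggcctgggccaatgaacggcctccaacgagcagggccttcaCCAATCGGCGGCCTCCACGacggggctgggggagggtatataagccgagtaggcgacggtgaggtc
XBP1, chr22:28800570-28800819, minus strand: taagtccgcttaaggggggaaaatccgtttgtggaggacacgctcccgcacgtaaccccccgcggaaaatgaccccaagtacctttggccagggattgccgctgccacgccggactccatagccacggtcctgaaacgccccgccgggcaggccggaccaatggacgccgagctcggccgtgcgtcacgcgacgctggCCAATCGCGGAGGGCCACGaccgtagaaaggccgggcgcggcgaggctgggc
CHAC1, chr15:40953221-40953470, plus strand: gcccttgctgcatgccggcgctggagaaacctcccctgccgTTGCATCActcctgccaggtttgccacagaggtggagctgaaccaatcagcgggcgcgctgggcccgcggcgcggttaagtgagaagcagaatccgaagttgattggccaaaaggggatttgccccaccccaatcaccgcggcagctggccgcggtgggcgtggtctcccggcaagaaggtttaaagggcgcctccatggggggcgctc
ASNS, chr7:97872409-97872658, minus strand: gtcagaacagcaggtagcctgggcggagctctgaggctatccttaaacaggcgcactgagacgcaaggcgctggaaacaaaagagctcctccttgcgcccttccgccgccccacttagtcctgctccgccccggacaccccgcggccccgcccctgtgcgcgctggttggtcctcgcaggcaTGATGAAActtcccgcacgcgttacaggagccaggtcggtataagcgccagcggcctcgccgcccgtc
GCLM, chr1:93909431-93909680, minus strand: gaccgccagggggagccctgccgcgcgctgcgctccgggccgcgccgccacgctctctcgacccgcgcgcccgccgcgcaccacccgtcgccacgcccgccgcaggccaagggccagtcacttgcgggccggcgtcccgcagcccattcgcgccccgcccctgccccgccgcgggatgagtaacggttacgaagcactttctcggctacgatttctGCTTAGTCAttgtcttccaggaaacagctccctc

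For the remaining motifs the shares among all promoters and among the higher genes were close to each other. The heat shock element (the triplets TTC, GAA and TTC, or GAA, TTC and GAA, with 2 bases of any kind between them) was present in 0.430% of all promoters and in 0.403% of the higher genes. For the metal response element (TGCACNC or TGCGCNC) the shares were 46.8% and 46.8%, for the cyclic AMP element (TGACGTCA) 3.97% and 4.03%, and for the E-box (CACGTG) 12.9% and 12.9%. The sterol element TCACCCCAC was present in 0.548% of all and in 0.635% of the lower genes, and 1 of 17 cholesterol genes with a promoter, SREBF2, held it in this window.

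ATF4 controls genes of amino acid supply and tRNA charging under stress. Of 33 of its targets, 16 were past the limit and higher, 1 was past it and lower, and the median was 0.99. The summed level of the list did not follow the median, at 6954, 8003, 9231 and 9031 CPM. Besides GDF15 and DDIT3, the higher genes were led by SLC7A11, the cystine importer, at 14.9, 128, 39.0 and 262 CPM, and SESN2, a leucine sensor that restrains mTORC1, at 14.2, 104, 25.1 and 152 CPM. TRIB3, a pseudokinase, was at 57.0, 231, 68.9 and 277 CPM with 2 (95% interval 1.92 to 2.09), and CHAC1, which degrades glutathione, was at 4.95, 25.3, 9.87 and 31.4 CPM. ASNS, the asparagine synthetase, was at 84.7, 345, 144 and 368 CPM, so that both libraries with NBT were close to each other while the trametinib library stood above the control. The gene past the limit in the other direction was SLC3A2, the heavy chain that carries SLC7A5 and SLC7A11 to the membrane, at 884, 363, 1441 and 492 CPM, and its partner SLC7A5 had a log2 ratio of -0.93. Of 20 cytosolic aminoacyl-tRNA synthetases, WARS1, SARS1 and GARS1 were past the limit at 1.43, 1.32 and 1.04, and the list median was 0.37.

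Of 27 NRF2 targets, 13 were past the limit, all of them higher, with a median of 0.95. After HMOX1 and SLC7A11 the largest were the subunits of glutamate-cysteine ligase, the rate-limiting enzyme of glutathione synthesis. GCLC was at 57.9, 144, 79.0 and 434 CPM with 2.46 (95% interval 2.38 to 2.54) and GCLM at 66.3, 239.6, 91.3 and 378 CPM with 2.05 (95% interval 1.98 to 2.13). The thioredoxin reductase gene TXNRD1 was at 186, 442, 253 and 737 CPM, and SRXN1, which repairs peroxiredoxins, was at 89.0, 146, 104 and 339 CPM. FTL, the ferritin light chain, was at 372, 784, 686 and 2592 CPM, and both ferritin genes have many processed pseudogenes between which reads may be divided. The quinone reductase gene NQO1 had a log2 ratio of 0.27, and PGD and TKT, enzymes of the pentose phosphate pathway, had 0.16 and -0.40. The list thus held genes far past the limit beside genes that hardly differed, and its summed level was 3831, 7417, 5700 and 16591 CPM. In the 18 genes of iron handling, FTL, FTH1 and CHAC1 were higher and the iron reductase STEAP3 (-1.17) was lower past the limit. The transferrin receptor TFRC (-0.62) and the glutathione peroxidase GPX4 (-0.48) were below 0 and under the limit.

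Other branches of protein quality control differed less. Of 23 cytosolic heat shock proteins, 3 were past the limit and higher, namely HSPA1B (1.60), HSPB8 (1.43) and HSPA1A (1.34), and the median was 0.17. HSPA1A and HSPA1B are near-identical copies, so their separate values are uncertain. None of 32 proteasome subunits was past the limit, but 31 of them were above 0 and the median was 0.31. Among 20 autophagy genes, the ATG8 family members GABARAPL1 (13.4, 51.4, 41.1 and 165 CPM) and MAP1LC3B (43.1, 153, 61.5 and 219 CPM), SQSTM1 and the lysosomal regulator TFE3 (1.2) were higher, and TFEB (-1.14) was lower past the limit. Among 6 metallothionein and zinc genes, SLC30A1, which exports zinc, had 1.38 and MT1F had 1.03. Of 13 mitochondrial chaperones and proteases, LONP1 (1.07) and HSPA9 (1.02) were past the limit and higher, against a median of 0.03.

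**Figure D3:**
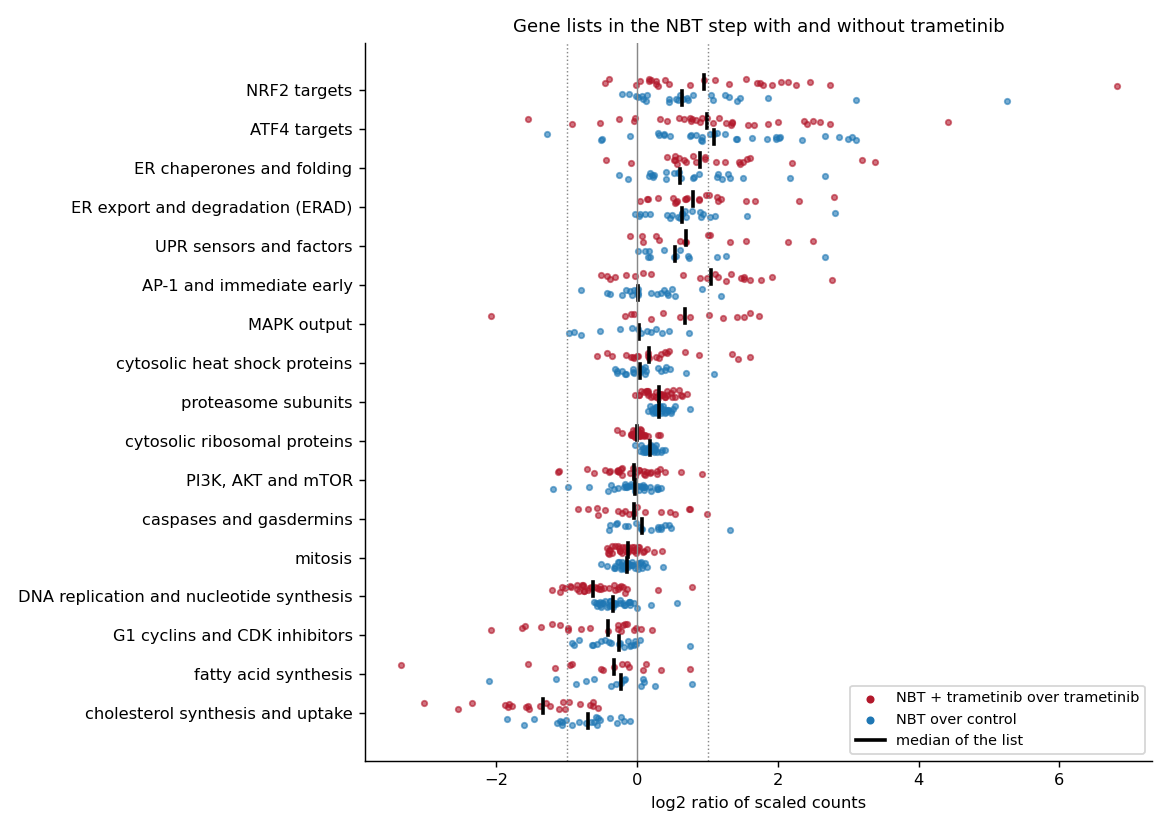
Log2 ratio of each member gene of 17 lists (1 dot per gene) for the combination over trametinib (red) and for NBT over control (blue), with the median as a black bar. Dotted lines mark the 2-fold limit; blue dots are given for genes with at least 50 counts in the control or NBT library. The medians of the AP-1 and MAPK output lists lie at 1.05 and 0.68 with trametinib and at 0.01 and 0.03 without it.

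Genes driven by ERK were all lower with trametinib than in the control, and most stood between both in the combination library. Of 14 MAPK output genes, 6 were past the limit and higher, 1 was past it and lower, the median was 0.68, and in 10 the combination lay between trametinib and control. MYC, the growth regulator, was at 48.6, 66.7, 8.97 and 29.9 CPM with 1.73 (95% interval 1.49 to 1.99). FOSL1, an AP-1 subunit, was at 633, 637, 66.9 and 204 CPM with 1.61 (95% interval 1.52 to 1.70), so that its combination value remained below both libraries without trametinib. The feedback genes DUSP5, DUSP4 and SPRY2 were at 21.4, 35.4, 2.90 and 6.83 CPM, 62.6, 31.9, 2.96 and 5.00 CPM and 9.53, 10.5, 1.69 and 3.47 CPM. All 14 remained below the control in the combination library. CCND1, the G1 cyclin, went the other way, at 451, 241, 69.4 and 16.5 CPM with -2.07 (95% interval -2.26 to -1.90), and was lower with NBT in both pairs of libraries. The summed level of the list was 2158, 2017, 264 and 448 CPM.

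AP-1 and immediate early genes overlap with this list in FOSL1, IER3 and EGR1. Of 22, 11 were past the limit and higher, none was past it and lower, and the median was 1.05, or 0.90 over the 19 with 50 counts in both libraries. FOS was at 4.53, 4.32, 0.739 and 5.20 CPM with 2.77 (95% interval 2 to 3.74), which rests on 14 counts in the trametinib library. JUN was at 138, 167, 84.6 and 235 CPM with 1.48 (95% interval 1.39 to 1.56), and was highest in the combination. The Krüppel-like factors KLF2 and KLF4 had 1.92 and 1.76, and the small MAF genes MAFF and MAFG, whose proteins pair with NRF2, had 1.51 and 1.27. EGR1 was at 42.7, 24.6, 5.22 and 5.96 CPM, a log2 ratio of 0.19 (95% interval -0.21 to 0.59) that holds 0, and JUNB (-0.42) and NR4A1 (-0.51) lay below 0. DUSP1, the phosphatase of p38 and JNK, was at 14.4, 22.2, 10.1 and 43.2 CPM.

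**Figure D4:**
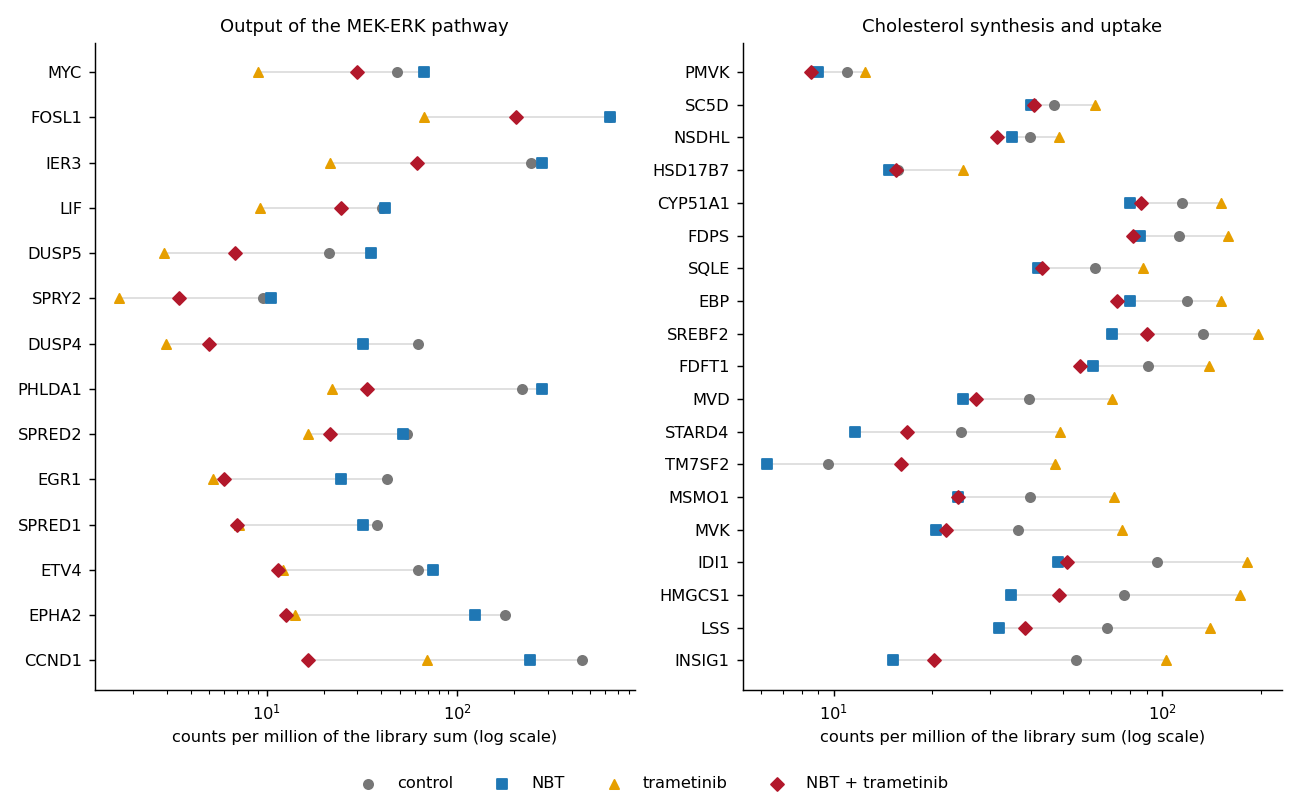
Level in CPM (log scale) of the 14 MAPK output genes (left) and 19 of the 22 genes of cholesterol synthesis and uptake (right), ordered by their log2 ratio of the combination over trametinib, with 1 marker per library. On the left all 14 combination values lie below the control; on the right the trametinib library is the highest for all 19 genes shown.

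Cholesterol genes were lower as a group. All 22 members had a log2 ratio below 0, 16 were past the limit and the median was -1.34. INSIG1, the ER anchor of SREBP and itself an SREBP target, was at 54.6, 15.2, 103 and 20.2 CPM with -2.35 (95% interval -2.51 to -2.19), and PMVK, an early enzyme of the pathway, had -0.55. HMGCS1, the synthase at the start of the pathway, was at 76.4, 34.8, 172 and 48.4 CPM. The gene of the controlling factor, SREBF2, was at 134, 70.4, 196 and 90.3 CPM with -1.12 (95% interval -1.2 to -1.03). In 21 of the 22 the trametinib library was above the control and in 21 the combination was below it, and the summed level was 1840, 972, 2584 and 932 CPM.

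Of 15 genes of fatty acid synthesis, 3 were past the limit and lower and none was higher, with a median of -0.33. SCD, the desaturase that makes oleate, was at 164, 38.0, 352 and 34.4 CPM with -3.36 (95% interval -3.47 to -3.24), FASN, the fatty acid synthase, was at 601, 270.1, 564 and 193 CPM, and ACACA, the acetyl-CoA carboxylase, had -1.17. FADS2, another desaturase, had 0.76. Glycolysis genes had a median of -0.36, with PFKFB4 (-1.86), ALDOC (-1.49) and LDHA (-1.13) past the limit among 23, and all 32 genes of oxidative phosphorylation were below 0 with none past it and a median of -0.31.

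Most genes of the cell cycle lists stayed under the limit, and those past it were lower. Of 21 G1 cyclins and CDK inhibitors, 6 were past the limit and lower, and the median was -0.41, or -0.27 over the 19 with 50 counts in both libraries. Besides CCND1 those past the limit were the CDK inhibitor gene CDKN2D (-1.63), the S-phase factor E2F1 (-1.59), cyclin E1 (CCNE1, -1.36), the ligase subunit SKP2 (-1.21) and E2F2 (-1.10). Of 34 genes of DNA replication and nucleotide synthesis, 32 were below 0, 4 were past the limit and the median was -0.63. PCNA, the sliding clamp, was at 144, 112, 152 and 65.3 CPM, and the helicase subunits MCM6 and MCM4 and thymidylate synthase TYMS had -1.10, -1.07 and -1.02. CDC6, which loads the helicase, was above 0 at 0.78. None of 34 mitosis genes was past the limit, and their median was -0.13. The CDK inhibitor CDKN1A was at 29.3, 49.3, 101 and 117 CPM, a log2 ratio of 0.22.

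The study asked about AKT signaling and about apoptosis and pyroptosis. At the mRNA level the genes it followed were all under the 2-fold limit in this step, the farthest from 0 being GSDME at 0.74. Of 32 genes of the PI3K, AKT and mTOR pathway, none was past the limit and higher, PIK3R3 (-1.12) and PHLPP1 (-1.13) were lower, and the median was -0.04. AKT1 was at 154, 147, 149 and 124 CPM with -0.27 (95% interval -0.35 to -0.19). For the combination over the control the AKT1 log2 ratio was -0.32. The paper reported by RT-PCR that the cotreatment lowered AKT1 mRNA, and by Western blot that total and phosphorylated AKT fell. From the RNA-seq it also reported enrichment of the PI3K/AKT pathway among genes that differed between control and combination. These are other methods or another pair of libraries, and they were not compared with the AKT1 ratios given here. MTOR was at 104, 93.8, 92.3 and 94.4 CPM with 0.03 (95% interval -0.06 to 0.13), and RICTOR, which defines mTORC2, was at 69.3, 73.3, 59.6 and 74.8 CPM with 0.33 (95% interval 0.22 to 0.44). The IKK kinase genes CHUK and IKBKB had log2 ratios of -0.05 and 0.28. These are transcript levels and hold no information on phosphorylation.

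GSDME, a pore-forming gasdermin, was at 72.0, 95.1, 47.4 and 79.0 CPM with 0.74 (95% interval 0.62 to 0.86), so that the combination was above trametinib and near the control. CASP9, BAX and PARP1 had log2 ratios of -0.22, 0.02 and -0.17, and the intervals of CASP9 and BAX held 0. None of 19 caspase and gasdermin genes was past the limit, the nearest being CASP4, an inflammatory caspase, at 24.6, 61.4, 21.7 and 43.0 CPM. Of 15 BCL2 family genes, the killer gene PMAIP1 (NOXA) was higher at 11.6, 20.3, 8.50 and 17.5 CPM and BMF was lower at 0.852, 0.257, 6.6 and 1.48 CPM, both past the limit. The death receptor genes TNFRSF10A and TNFRSF10B, which bind TRAIL, had 1.31 and 1.19, and FAS had 0.61. Of 19 p53 targets, 4 were past the limit and higher (PLK3, GADD45A, TNFRSF10B and PMAIP1), with a median of 0.22.

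Lists of surface, matrix and immune genes were mixed. Of 17 receptor tyrosine kinases, FGFR3 (11.2, 5.09, 34.4 and 6.17 CPM) and FGFR2 (-1.34) were past the limit and lower, and MET had 0.83. The EGF receptor ligand genes AREG (36.9, 86.4, 14.8 and 74.6 CPM) and HBEGF (1.28) were higher. Of 12 genes of fibrous matrix, 4 were lower past the limit, led by the lysyl oxidase LOXL4 (-2.99), and the median was -0.83. Of 19 YAP and TEAD targets, 5 were lower and ANKRD1 (2.86) was higher. Of 17 matrix proteases and their controls, 5 were higher and 2 were lower past the limit, and the median was -0.30. The urokinase receptor PLAUR (1.80) and SERPINE2 (1.88) were among the higher and the inhibitor TIMP3 (-1.53) among the lower. Of 18 TGF-beta response genes, 2 were higher and 4 were lower past the limit, and the median was -0.38. The lower genes included ID1 (8.20, 6.33, 10.1 and 1.78 CPM) and SMAD6 (-2.44), targets of BMP signaling. In the NF-kB list of 21 genes, 4 were higher and 1 was lower past the limit, and the median was 0.08. CXCL2 and CXCL3 were higher, as were the adaptor TRAF1 (2.34, 2.68, 3.64 and 16.9 CPM) and LIF, whereas IL1B (15, 7.77, 8.76 and 0.663 CPM) was lower. Of 15 MHC class I genes, 5 were lower past the limit, among them the immunoproteasome subunit PSMB9 (-1.79). None of 35 cytosolic ribosomal protein genes, 25 ribosome biogenesis genes or 20 actin genes was past the limit.

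The step was set beside the same addition of NBT without trametinib, NBT over control, which shares no library with it. For 10981 of the members at least 1 of those 2 libraries also had 50 counts, and among these 152 were higher and 93 lower past the limit, that is 1.38% and 0.847%. Across these genes Pearson's r of the log2 ratios was 0.738 and Spearman's rho was 0.716, as a description over genes that share libraries and are not independent. The standard deviation of the log2 ratio was 0.550 with trametinib and 0.384 without. Of the 289 of these genes that were higher past the limit on trametinib, 281 were also above 0 without it and 111 were past the limit there, which is 38.4% of the former and 73.0% of the latter list. Of 353 that were lower, 344 were also below 0 and 74 past the limit, 21.0% and 79.6% of each list. Over all 10981 genes, 49.6% were above 0 and 50.4% below 0 without trametinib. The median log2 ratio of the higher genes was 1.32 with trametinib and 0.86 without, and that of the lower genes was -1.28 and -0.68. The genes were chosen by the former value, so a smaller value without trametinib follows in part from the choice.

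**Figure D5:**
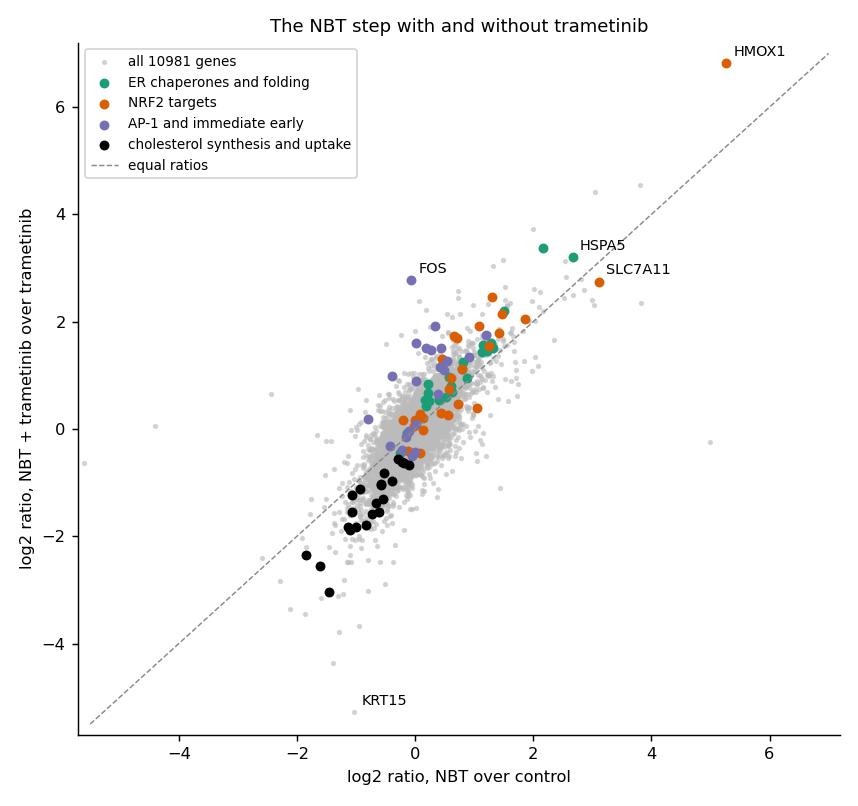
Log2 ratio of NBT over control (x axis) against the combination over trametinib (y axis) for 10981 genes, with 4 lists in color and the dashed line marking equal ratios. HMOX1 and the cholesterol genes lie farther from 0 on the y axis than on the x axis, and KRT15 lies far below the line.

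The medians of both steps were close for some lists and apart for others. ATF4 targets had medians of 0.99 with and 1.09 without trametinib, and SLC7A11 (2.75 and 3.11), DDIT3 (2.50 and 2.67) and TRIB3 (2 and 2.02) differed by less than 0.5 between the steps. ASNS (1.35 and 2.03) and CHAC1 (1.67 and 2.35) had the smaller ratio on trametinib. ER chaperones had medians of 0.90 and 0.61, NRF2 targets 0.95 and 0.63, and cholesterol genes -1.34 and -0.70. AP-1 and immediate early genes had 1.05 and 0.01, and MAPK output genes 0.68 and 0.03. Past the limit without trametinib were 18 of 33 ATF4 targets, 8 of 24 chaperones and 9 of 26 NRF2 targets in the higher direction, 8 of 22 cholesterol genes in the lower direction, and 1 of 22 AP-1 and 0 of 14 MAPK output genes in the higher direction.

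The difference of the steps, the log2 ratio with trametinib minus that without, was at least 1 for 74 genes (0.674%) and at most -1 for 101 (0.92%). Among genes with at least 200 counts in each pair, the most positive included GPAT3, a glycerol-3-phosphate acyltransferase, at 15, 24.6, 2.53 and 15.1 CPM and a difference of 1.85 (95% interval 1.37 to 2.38). FUT3, a Lewis fucosyltransferase, was at 8.47, 23.9, 1.21 and 11.0 CPM with 1.66 (95% interval 1.00 to 2.42). FOSL1 differed by 1.60 (95% interval 1.5 to 1.70) and KLF2 by 1.58 (95% interval 1.22 to 1.96). For GPAT3, FUT3 and FOSL1 the trametinib library was the lowest of the 4 and the NBT library the highest. HMOX1 differed by 1.56 (95% interval 1.24 to 1.85) and DUSP1 by 1.47 (95% interval 1.15 to 1.79). The 8 most positive genes also held SULT1A4 and U2AF1L5, whose values are uncertain because each is a near-identical copy of another gene.

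The most negative difference was that of KRT15, at -4.25 (95% interval -4.61 to -3.91). MXRA5, a matrix remodeling protein, was at 20, 8.54, 92.2 and 10.9 CPM with -1.86 (95% interval -2.2 to -1.51), KRT17 at 157, 124, 1008 and 224 CPM with -1.83 (95% interval -1.93 to -1.74) and ELF3 had -1.81 (95% interval -2.19 to -1.42). For these 4 genes the trametinib library was the highest of the 4 libraries. JDP2, a repressor of AP-1, was at 9.69, 20.1, 37.0 and 24.4 CPM, so that NBT was above the control without trametinib and below the trametinib library with it. ZNF488 differed by -1.58 (95% interval -2.03 to -1.16), and the read-through gene ERV3-1-ZNF117, whose reads are shared with its parts, was also among the 8 most negative.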

How the data were processed

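RNA of 4 cultures, 1 per condition, was sequenced on the BGISEQ platform. The authors deposited estimated counts per gene and per RefSeq transcript, not normalized, which need not be whole, and were not whole for 56.6% of the members, since reads that match several transcripts are divided between them. The authors also deposited TPM and FPKM values per gene, both scaled to length. The submitters' processing notes name Bowtie2 2.2.5, RSEM 1.2.8 and hg38, without their roles. Libraries were assigned by title and treatment.

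Estimated counts were rounded and scaled to library sums, and log2 ratios were computed with 0.5 reads added. Ratios have 95% Clopper-Pearson intervals, and the interval of a difference of ratios was combined from these. They cover counting error only, since 1 library per condition holds no variation between cultures. PCR reads are not independent molecules and divided counts are estimates, so the counting error can be wider than the intervals. With 1 library per condition no test was run, and genes past a log2 limit of 1 are counted. Named genes were those of 55 lists, the 15 largest increases and decreases (among genes that reached 200 counts), the 5 largest gains and losses in CPM, the 8 largest differences of the NBT step in each direction and genes the study follows, unless stated otherwise. Some of these genes are counted in their lists but not reported here. The members and lists were chosen with earlier results of these data known. TMM factors of edgeR 4.0.16, size factors of DESeq2 1.42.0, TPM, FPKM and other limits were alternatives. The calling step was run on simulated libraries with counting error only. These held no variation between cultures and no divided reads, so the run says nothing about those sources of error. Promoters were from RefSeq. Python 3.11.15, R 4.3.3 and scipy 1.17.1 were used.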

Additional observations from a re-analysis of the deposited data

Results flagged for a closer look

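PGBD3, a domesticated transposase gene that is not in any list and was named after its values were seen, was the only gene of 10981 past the 2-fold limit in opposite directions in the 2 steps. In CPM it stood at 1.12 without drug, 3.09 with NBT, 4.85 with trametinib and 2.24 with both. Its log2 ratio was -1.11 (95% interval -1.67 to -0.58) for the combination over trametinib and 1.44 for NBT over control. With 1 library per condition the difference between the steps was not tested. PGBD3 shares sequence with the overlapping gene ERCC6, so reads may be divided between them.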

How the results depend on the processing

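TMM factors, median-of-ratios factors, TPM, FPKM, 5 added reads and summed transcript counts gave between 300 and 357 higher and between 379 and 430.0 lower genes for the combination over trametinib, against 316 and 427. With at least 10 counts there were 490 higher and 707 lower genes, and 291 and 207 for NBT over control. With at least 200 counts there were 277 lower genes, and 58 for NBT over control. A log2 limit of 2 left 58 higher and 69 lower genes, and 24 and 7 for NBT over control. With the whole counting interval past the limit they were 207 and 235, and 89 and 37. The former 6 settings kept between 690 and 743 of the 743 genes past the limit. Of 5652 recomputed ratios of listed and named genes, 194 left their counting interval and 0 changed sign while past the limit. List medians moved by at most 0.25. Promoter shares of genes past a log2 limit of 2 left the interval of the main share for 10 of 18 motif and direction pairs. The XBP1 share does not depend on scaling. No paired analysis was possible because each condition had 1 library, and for the same reason no library could be left out. Depth limits genes under about 50 counts.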
